A study of Homo sapiens with 6 samples.

Results

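Cadherin transcripts were measured for 10 genes in the established human line L3.6pl, which derives from pancreatic cancer. The genes were chosen by symbol among the 23245 gene rows kept per library, and are CDH1, CDH2, CDH3, CDH4, CDH5, CDH6, CDH11, CDH13, CDH17 and CDH24. The compared groups were 3 libraries titled ARID1Ako, whose genotype label is ARID1A-deficient, and 3 parental libraries labelled WT. Both groups were grown in serum-containing medium and received no drug. No source used here says how ARID1A was disrupted, or whether the ARID1Ako libraries came from 1 clone or several. Nothing says that the 3 samples of a group came from separate cultures, so p-values measure the spread between these samples, which may be technical. No sample restores the gene, so ARID1A loss cannot be told apart from any other way in which the ARID1Ako cells differ.

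Cadherins are calcium-dependent adhesion proteins of the cell surface. Their extracellular repeats bind cadherins of the neighbouring cell, and the cytoplasmic tail of a classical cadherin binds p120 catenin and beta-catenin, which links through alpha-catenin to actin. In development and in carcinomas, loss of E-cadherin together with gain of N-cadherin is called cadherin switching and accompanies epithelial to mesenchymal transition (EMT). CDH13 (T-cadherin, attached by a lipid anchor and without a cytoplasmic tail) and CDH17 (liver-intestine cadherin, with a short tail that does not bind catenins) belong to the wider family rather than to the classical cadherins in the strict sense.

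Values are in FPKM, that is, fragment numbers divided by transcript length and by a scaling factor of the library. Levels may thus be compared between genes, but only roughly, since no source used here gives the annotation behind those lengths. ARID1A itself, which encodes a SWI/SNF chromatin remodeller subunit, measured 3.55, 3.28 and 3.61 FPKM in ARID1Ako libraries 1, 2 and 3, against 11.8, 6.76 and 9.42 FPKM in parental libraries 1, 2 and 3. It was lower in every ARID1Ako library and still measurable. The libraries summed to between 576681 and 792796 FPKM. Relative depth, estimated from the spacing of the lowest values and assuming scaling to the library's total, was 1.27, 0.732 and 0.785 in the ARID1Ako libraries and 1, 0.785 and 1.04 in the parental libraries. No source used here gives total fragments. The epithelial marker EPCAM was high in both groups, at 187 to 207 FPKM in ARID1Ako libraries and 234 to 269 FPKM in parental libraries. CLDN4, another such marker, lay lower, at 19.7 ± 1.99 FPKM in ARID1Ako cells and 5.42 ± 0.111 FPKM in parental cells (SD, n = 3 each).

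N-cadherin and K-cadherin transcripts rose and P-cadherin transcripts fell in ARID1Ako cells, while E-cadherin was lower by a margin that did not pass the test. Of the 10 genes, 6 had the mean of at least 0.5 FPKM over all libraries that testing required, and 3 of these passed limma with Benjamini-Hochberg adjustment at 0.05, where 15.9% of all tested genes passed. The 2 higher genes were CDH2 and CDH6, where 7.82% of all 12826 tested genes were called higher, and the 1 lower gene was CDH3, where 8.11% were called lower. CDH2 and CDH6 reached the required mean only through their ARID1Ako values, so their passing the filter already implied a difference. The groups did not overlap for 5 of the 6 tested genes, against 35.3% of all tested genes. CDH4 and CDH11 were detected below the required mean, and CDH13 and CDH17 were listed at 0 in every library.

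**Figure D1:**
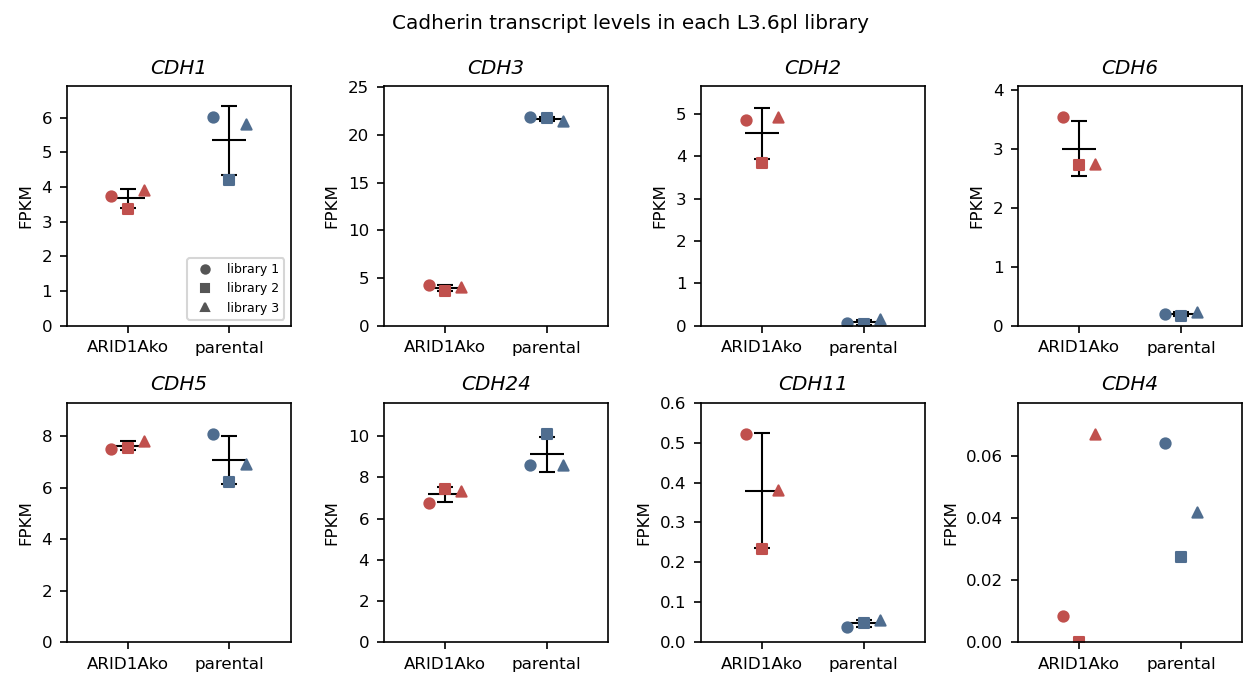
Level in FPKM (vertical axes, each panel on its own scale from 0) of the 8 cadherin genes that were above 0 in any library, in ARID1Ako and parental libraries. Points are libraries, the horizontal bar is the mean and the whiskers are 1 SD (n = 3), both left out for CDH4, which was listed at 0 in 1 library. CDH2 and CDH6 lie near 0 in parental libraries and at 2.74 to 4.91 FPKM in ARID1Ako libraries, CDH3 shows the opposite order, and CDH5 overlaps between the groups.

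CDH1 encodes E-cadherin, the main cadherin of epithelial adherens junctions. It measured 3.73, 3.37 and 3.92 FPKM in ARID1Ako libraries 1, 2 and 3, against 6.01, 4.21 and 5.83 FPKM in parental libraries 1, 2 and 3. Every ARID1Ako library lay below every parental library, but parental library 2 came close to the ARID1Ako range. The means were 3.67 ± 0.279 FPKM in ARID1Ako cells and 5.35 ± 0.991 FPKM in parental cells (SD, n = 3 each), a ratio of 0.687. The log2 fold change on the log2(FPKM + 1) scale was -0.43 (SE 0.14, 95% interval -0.76 to -0.10, limma adjusted p = 0.0838), which did not pass. Without parental library 2 it was -0.57 and passed (limma adjusted p = 0.00457), in a fit that called 16.4% of all tested genes lower, and with quantile normalization it was -0.42 and passed (limma adjusted p = 0.0361). E-cadherin transcripts thus remained measurable in every ARID1Ako library, and CDH1 lay above 28.1% of tested genes by its ARID1Ako mean and above 35.4% by its parental mean.

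CDH3 encodes P-cadherin, a classical cadherin of basal epithelial layers and placenta. It was the most abundant of the 10 genes in parental cells. Its level was 4.28, 3.62 and 4.05 FPKM in ARID1Ako libraries 1, 2 and 3, against 21.8, 21.8 and 21.5 FPKM in parental libraries 1, 2 and 3. The groups were far apart, and the parental libraries lay close together. CDH3 fell to 3.98 ± 0.335 FPKM in ARID1Ako cells, against 21.7 ± 0.196 FPKM in parental cells (SD, n = 3 each). The parental mean was 5.44-fold higher, and the log2 fold change was -2.19 (SE 0.09, limma adjusted p = 1.46e-05). By its mean it lay above 29.8% of tested genes in ARID1Ako cells and above 67.1% in parental cells.

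CDH2 encodes N-cadherin, the cadherin of neural tissue and mesenchymal cells whose gain, together with loss of E-cadherin, makes up the switch. It measured 4.85, 3.84 and 4.91 FPKM in ARID1Ako libraries 1, 2 and 3, against 0.0786, 0.0402 and 0.154 FPKM in parental libraries 1, 2 and 3. Every parental value was near 0, and the lowest ARID1Ako value was far above the highest of them. CDH2 rose to 4.53 ± 0.601 FPKM, against 0.0909 ± 0.0579 FPKM in parental cells (SD, n = 3 each). The log2 fold change was 2.34, with SE 0.11 (limma adjusted p = 3.78e-05). The ratio of means was 49.9, and it ranged from 39 without parental library 2 to 76.3 without parental library 3, so its size is imprecise. With a pseudocount of 0.1 FPKM the log2 fold change was 4.64.

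RefSeq annotates several starts for CDH2, and a value per gene does not say which of them was used. The 250 bases before the annotated starts are shown because CDH2 rose and is among the members with a matched window. Both are on the minus strand of chromosome 18 in build GRCh38.p14, the sequences are credited to RefSeq, and capitals mark E-boxes, the 6 bases CANNTG that SNAI, ZEB and TWIST proteins can bind. The outer window lies at chr18:28177131-28177380 and the inner window at chr18:28036642-28036891.
CDH2 outer start: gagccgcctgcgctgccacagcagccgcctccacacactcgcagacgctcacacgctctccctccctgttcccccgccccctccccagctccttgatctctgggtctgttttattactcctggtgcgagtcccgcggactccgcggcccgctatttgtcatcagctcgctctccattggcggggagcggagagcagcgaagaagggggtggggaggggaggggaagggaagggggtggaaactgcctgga
CDH2 inner start: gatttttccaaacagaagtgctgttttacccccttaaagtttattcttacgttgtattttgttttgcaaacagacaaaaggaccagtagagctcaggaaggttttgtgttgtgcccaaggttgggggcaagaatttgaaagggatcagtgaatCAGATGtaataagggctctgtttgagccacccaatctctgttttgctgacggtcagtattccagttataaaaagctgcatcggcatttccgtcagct
The outer window held 66% G and C and no E-box. The inner window held 42% G and C and 1 E-box, which begins 97 bases before the start. Neither held CAGGTG or its reverse complement CACCTG, the subset of E-boxes preferred by SNAI and ZEB proteins. Of 35116 windows of the same length before RefSeq starts, 61.8% held CANNTG and 17.5% held CAGGTG or CACCTG, on either strand. The median window had 58% G and C. Windows were matched for 2 of the 10 genes, CDH2 and CDH4.

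CDH6 encodes K-cadherin, a type II classical cadherin of fetal kidney and renal carcinoma. Its level was 3.54, 2.74 and 2.75 FPKM in ARID1Ako libraries 1, 2 and 3, against 0.196, 0.170 and 0.230 FPKM in parental libraries 1, 2 and 3. The groups did not overlap, and ARID1Ako library 1 was the highest. CDH6 rose 15.2-fold, to 3.01 ± 0.461 FPKM in ARID1Ako cells, against 0.199 ± 0.0301 FPKM in parental cells (SD, n = 3 each). The log2 fold change was 1.74 (SE 0.11, limma adjusted p = 0.000111), and 3.38 with a pseudocount of 0.1 FPKM. In parental libraries CDH6 was 1.49 to 4.23 times as abundant as CDH2, while in ARID1Ako libraries it stood at 0.560 to 0.731 of the CDH2 level. The parental ratio divides by CDH2 values of 0.0402 to 0.154 FPKM, which are near 0, so it is imprecise.

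CDH11 encodes OB-cadherin, a type II cadherin of osteoblasts and other mesenchymal cells. It reached 0.522, 0.235 and 0.382 FPKM in ARID1Ako libraries 1, 2 and 3, against 0.0380, 0.0485 and 0.0558 FPKM in parental libraries 1, 2 and 3. All ARID1Ako values were above all parental values, but the mean over all libraries was 0.213 FPKM, below the level required for testing. When no filter on low values was applied, its log2 fold change was 0.39 and it passed (SE 0.07, limma adjusted p = 0.0203), where 6.97% of 17832 genes were called higher.

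CDH5 encodes VE-cadherin, the cadherin of endothelial junctions. It was measurable at 7.51, 7.53 and 7.83 FPKM in ARID1Ako libraries 1, 2 and 3, against 8.09, 6.22 and 6.93 FPKM in parental libraries 1, 2 and 3. The ARID1Ako values fell inside the parental range. The means were 7.62 ± 0.177 FPKM in ARID1Ako cells and 7.08 ± 0.945 FPKM in parental cells (SD, n = 3 each). The log2 fold change was 0.10 (95% interval -0.15 to 0.35, limma adjusted p = 0.594), an interval that covers a small change in either direction. Other endothelial markers were much lower than CDH5. VWF, KDR, TEK, ERG and TIE1 reached at most 0.0394 FPKM in any library and CLDN5 at most 0.436 FPKM. PECAM1, an endothelial and leukocyte adhesion gene, measured 1.24 ± 0.142 FPKM in ARID1Ako cells and 2.01 ± 0.152 FPKM in parental cells (SD, n = 3 each). It was called lower (limma adjusted p = 0.0254). The PECAM1 call was lost on leaving out any library other than parental library 2 (highest limma adjusted p = 0.0992). Summed over these 7 markers, which leave out CDH5, the libraries held 1.24 to 1.56 FPKM in ARID1Ako cells and 2.19 to 2.67 FPKM in parental cells.

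CDH24 encodes a type II cadherin. It measured 6.77, 7.44 and 7.36 FPKM in ARID1Ako libraries 1, 2 and 3, against 8.61, 10.1 and 8.62 FPKM in parental libraries 1, 2 and 3. The groups did not overlap. The means of 7.19 ± 0.364 FPKM in ARID1Ako cells and 9.11 ± 0.866 FPKM in parental cells (SD, n = 3 each) gave a log2 fold change of -0.30 (95% interval -0.53 to -0.07), which did not pass (limma adjusted p = 0.0834). CDH4, which encodes R-cadherin of retina and brain, was listed at 0.00839, 0 and 0.0671 FPKM in ARID1Ako libraries 1, 2 and 3 and at 0.0642, 0.0273 and 0.0419 FPKM in parental libraries 1, 2 and 3. These values overlap and are too low to compare. CDH13 and CDH17 at 0 may be absent or failed estimates, since a listed 0 does not tell these apart. CDX2, a homeobox factor that drives CDH17 in intestine, measured 4.41 ± 0.730 FPKM in ARID1Ako cells and 4.16 ± 0.225 FPKM in parental cells (SD, n = 3 each), with no call (limma adjusted p = 0.796).

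The order of the levels differed between the groups. In ARID1Ako cells CDH5 and CDH24 led, followed by CDH2, CDH3, CDH1 and CDH6, and within that run of 4 genes each neighbour overlapped with the next over the libraries. In parental cells CDH3 led, followed by CDH24, CDH5 and CDH1, with no overlap between neighbours, and CDH6, CDH2, CDH11 and CDH4 all lay at or below 0.230 FPKM. The summed level of the 10 genes was 28.8 to 31.3 FPKM in ARID1Ako libraries and 42.6 to 44.9 FPKM in parental libraries. CDH3 made up 13.1% ± 0.571 of that sum in ARID1Ako cells and 49.7% ± 1.26 in parental cells (SD, n = 3 each). CDH1 made up 12.1% ± 0.421 in ARID1Ako cells and 12.2% ± 2.04 in parental cells, so its share differed by less than the spread between libraries. CDH2 and CDH6 together made up 24.7% ± 2.02 in ARID1Ako cells and 0.664% ± 0.202 in parental cells (SD, n = 3 each). The ratio of CDH2 to CDH1 was 1.14 to 1.30 in ARID1Ako libraries and 0.00955 to 0.0264 in parental libraries. In bulk RNA, a smaller share of cells with a transcript and less transcript per cell cannot be told apart.

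**Figure D2:**
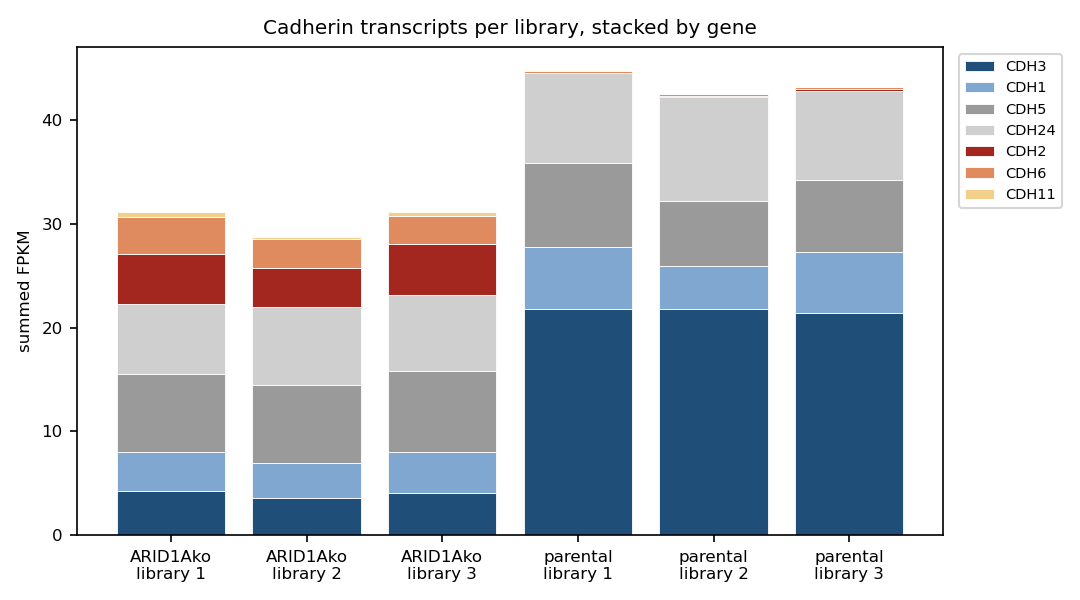
Summed FPKM (vertical axis) of the cadherin genes in each library (horizontal axis), stacked by gene, with ARID1Ako libraries on the left and parental libraries on the right. CDH4 is too low to see and is left out with CDH13 and CDH17, which were at 0. The dark blue CDH3 part shrinks to 3.62 to 4.28 FPKM in ARID1Ako libraries, where the red and orange CDH2 and CDH6 parts appear.

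The cytoplasmic partners of the cadherins are the catenins and their relatives. Of 16 genes of the cadherin-catenin complex, 13 were tested, with none higher, 1 lower and 12 not past the limma threshold, where 15.9% of all tested genes passed in either direction. At an unadjusted p under 0.05, 1 was higher and 3 were lower, where 13.8% of all tested genes were higher and 15.7% lower. Their median log2 fold change was -0.20, against -0.01 over all tested genes. Without parental library 2 the calls were 1 higher and 6 lower, in a fit that called 15.7% of all tested genes higher and 16.4% lower, against 7.82% and 8.11% with all libraries. With quantile normalization or a pseudocount of 0.1 FPKM, 2 were lower. CTNNA1, the alpha-catenin that links to actin, measured 105 ± 1.54 FPKM in ARID1Ako cells and 110 ± 7.10 FPKM in parental cells (limma adjusted p = 0.730). CTNNB1, beta-catenin, measured 91.4 ± 10.7 FPKM in ARID1Ako cells and 120 ± 24.1 FPKM in parental cells (limma adjusted p = 0.219), and passed without parental library 2 (limma adjusted p = 0.00927). CTNND1, p120 catenin, which holds cadherins at the surface, measured 50.7 ± 4.15 FPKM in ARID1Ako cells and 59.5 ± 12.7 FPKM in parental cells (limma adjusted p = 0.482), and passed without parental library 2 (limma adjusted p = 0.0257). JUP, plakoglobin, which stands in for beta-catenin in junctions, measured 135 ± 12.8 FPKM in ARID1Ako cells and 138 ± 13.3 FPKM in parental cells (SD, n = 3 each for all). The member that fell was ARVCF, a relative of p120 catenin, at 5.00 ± 0.372 FPKM in ARID1Ako cells and 8.03 ± 0.530 FPKM in parental cells (limma adjusted p = 0.00738). CTNND2, delta-catenin of neurons, was below the level for testing at 0.258 to 0.298 FPKM in ARID1Ako libraries and 0.0123 to 0.0160 FPKM in parental libraries. With no filter on low values its log2 fold change was 0.34 and it passed (SE 0.03, limma adjusted p = 0.000768). That fit called 6.97% of 17832 genes higher, and 1 higher and 1 lower of 16 genes of the complex.

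Transcription factors known to repress E-cadherin or induce N-cadherin moved in both directions. Of 13 genes, 8 were tested, with 4 higher, 1 lower and 3 not past the threshold, where 7.82% of all tested genes were higher and 8.11% lower. The median log2 fold change of the list was 0.31, against -0.01 over all tested genes. SNAI1, the Snail repressor of CDH1, rose to 1.13 ± 0.113 FPKM in ARID1Ako cells, against 0.504 ± 0.211 FPKM in parental cells (limma adjusted p = 0.0363). TWIST1, a basic helix-loop-helix EMT factor, rose to 10.1 ± 0.918 FPKM, against 6.91 ± 0.725 FPKM in parental cells (limma adjusted p = 0.0259). TCF4, an E-protein that pairs with such factors, rose 2.05-fold (limma adjusted p = 0.0132), and the homeobox gene GSC rose 2.07-fold (limma adjusted p = 0.0195). SNAI2, the Slug repressor, fell to 8.35 ± 0.390 FPKM in ARID1Ako cells, against 11.8 ± 0.647 FPKM in parental cells (SD, n = 3 each; limma adjusted p = 0.0133). These calls changed with a library left out. There were 0 higher and 0 lower without ARID1Ako library 3 or parental library 3. There was 1 higher without ARID1Ako library 1 or 2, 0 lower without ARID1Ako library 2, and 2 higher without parental library 1. Calls among all genes also fell, from 1003 higher and 1040 lower to 522 and 438 without ARID1Ako library 3. Without parental library 3 they were 570 and 463. The log2 fold changes kept their sign, at 0.39 to 0.58 for SNAI1, 0.41 to 0.56 for TWIST1 and 0.64 to 0.86 for TCF4. They were 0.51 to 0.73 for GSC and -0.49 to -0.42 for SNAI2. The SNAI1 call also ended with a pseudocount of 0.1 FPKM (limma adjusted p = 0.0613) and with quantile normalization (limma adjusted p = 0.0581). ZEB1, a zinc finger repressor of CDH1, measured 0.996 ± 0.189 FPKM in ARID1Ako cells and 0.957 ± 0.240 FPKM in parental cells (SD, n = 3 each). Its relative ZEB2 reached at most 0.0100 FPKM in any library.

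Of 13 tested epithelial transcription and splicing factors, 2 were higher and 3 lower, and 8 did not pass. Over all tested genes, 7.82% were higher and 8.11% lower. The list had a median log2 fold change of 0.05. ELF3, an ETS factor of epithelial cells, fell to 22.7 ± 1.72 FPKM in ARID1Ako cells, against 121 ± 7.94 FPKM in parental cells (SD, n = 3 each; limma adjusted p = 2.23e-05). FOXA1, a pioneer factor of endodermal epithelia, fell to a ratio of 0.633 (limma adjusted p = 0.0168), and its relative FOXA2 rose 2.53-fold (limma adjusted p = 0.000473). GRHL3, a grainyhead factor of surface epithelia, was 5.05-fold higher (limma adjusted p = 0.00128), at 1.09 ± 0.0549 FPKM in ARID1Ako cells and 0.216 ± 0.0566 FPKM in parental cells (SD, n = 3 each). It reached the required mean only through its ARID1Ako values, so its passing the filter already implied a difference. ESRP1, an epithelial splicing regulator, was at a ratio of 0.753 and passed narrowly (limma adjusted p = 0.0492), and this was lost on leaving out any library other than parental library 2 (highest limma adjusted p = 0.185) and with quantile normalization (limma adjusted p = 0.103). The FOXA1 call ended without ARID1Ako library 2 or 3 or parental library 3 (highest limma adjusted p = 0.0807). Lower members numbered 5 when parental library 2 was left out, in a fit that called 16.4% of all tested genes lower. They numbered 1 when ARID1Ako library 2 or 3 or parental library 3 was left out.

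**Figure D3:**
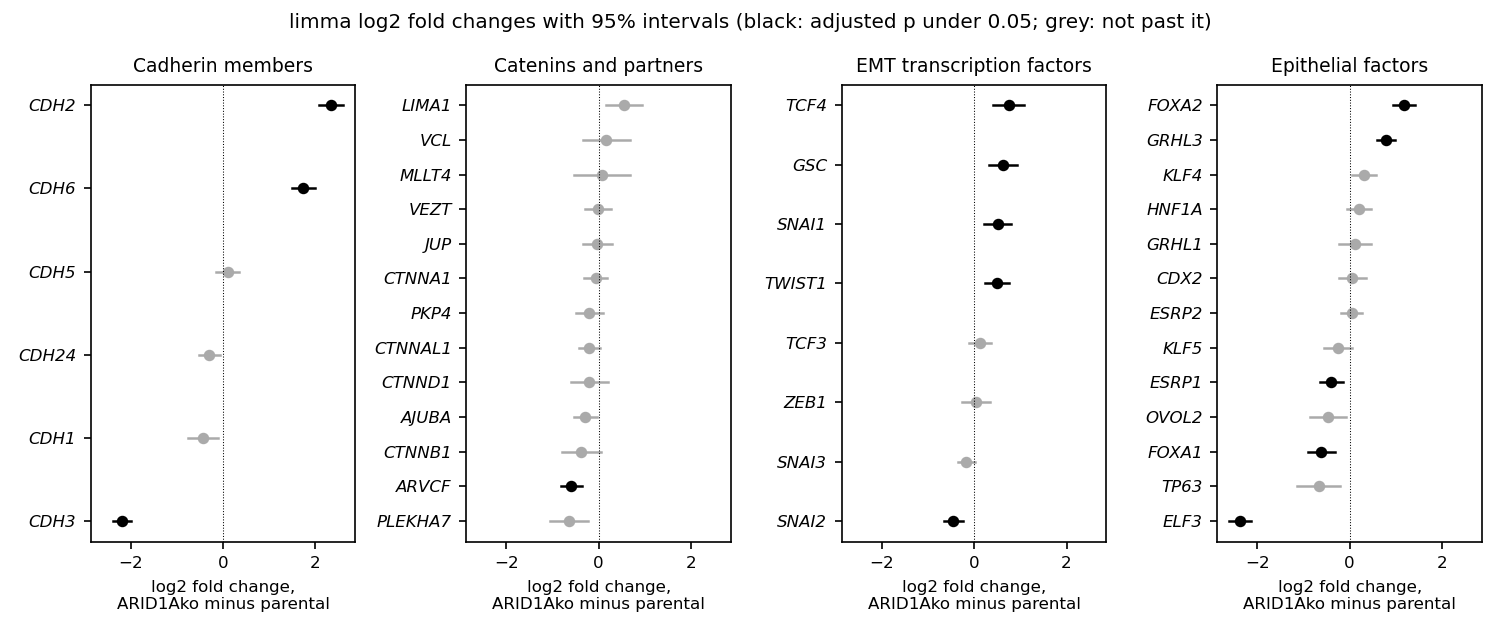
Log2 fold change, ARID1Ako minus parental, on the log2(FPKM + 1) scale (horizontal axis) for the tested cadherin genes, catenins and partners, EMT transcription factors and epithelial factors. Points are limma estimates, bars are 95% intervals, and black marks an adjusted p under 0.05. CDH2 and CDH6 at 2.34 and 1.74 and CDH3 at -2.19 lie outside the range of the 13 catenins and partners.

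Among genes that cut or mature cadherins, 1 of 15 tested members was higher, 1 lower and 13 not past the threshold. These counts stand beside 7.82% higher and 8.11% lower among all tested genes. The median log2 fold change of the list was -0.02. The lower count was 4 without parental library 2, in a fit that called 16.4% of all tested genes lower. ADAM15, a sheddase that can cleave E-cadherin, fell to 58.2 ± 7.32 FPKM in ARID1Ako cells, against 110 ± 13.6 FPKM in parental cells (SD, n = 3 each; limma adjusted p = 0.00641). PSEN2, the catalytic subunit of a gamma-secretase, rose 1.49-fold (limma adjusted p = 0.0266), which was lost on leaving out any library other than parental library 2 (highest limma adjusted p = 0.114). ADAM10, the main sheddase of E-cadherin, measured 16.4 ± 3.18 FPKM in ARID1Ako cells and 22.8 ± 10.1 FPKM in parental cells (limma adjusted p = 0.543) and passed without parental library 2 (limma adjusted p = 0.0196).

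In the wider cadherin superfamily, 36 further genes were examined and 11 were tested. Of these, 3 were higher, 2 lower and 6 not past the threshold (median log2 fold change -0.06), where 7.82% of all tested genes were higher and 8.11% lower. DCHS2, a large dachsous cadherin, measured 3.86, 2.17 and 3.44 FPKM in ARID1Ako libraries 1, 2 and 3, against 0.147, 0.0192 and 0.0574 FPKM in parental libraries 1, 2 and 3 (limma adjusted p = 0.000524). Like CDH2 and CDH6, it reached the required mean only through its ARID1Ako values, and its count among the higher genes carries that limit. FAT2, a giant cadherin of squamous epithelium, fell to 7.17 ± 0.435 FPKM in ARID1Ako cells, against 18.8 ± 4.42 FPKM in parental cells (SD, n = 3 each; limma adjusted p = 0.00302). PCDH1, a protocadherin of airway epithelium, rose 1.52-fold (limma adjusted p = 0.00586). Among the calsyntenins, membrane proteins with cadherin repeats, CLSTN3 rose 1.42-fold (limma adjusted p = 0.0205) and CLSTN1 fell to a ratio of 0.695 (limma adjusted p = 0.00988). The CLSTN3 call ended without ARID1Ako library 2 or 3 or parental library 3 (highest limma adjusted p = 0.103), and the CLSTN1 call ended without ARID1Ako library 2 (limma adjusted p = 0.0611). There were 4 lower without parental library 2, in a fit that called 16.4% of all tested genes lower. The higher count was 2 without ARID1Ako library 2 or 3 or parental library 3, and the lower count was 1 without ARID1Ako library 2.

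Of 6 tested mesenchymal genes often read beside a cadherin switch, 3 were higher, none was lower in limma and 3 did not pass. At the same threshold 7.82% of all tested genes were higher and 8.11% lower. At an unadjusted limma p under 0.05, 0 were lower, against 15.7% of all tested genes. The median log2 fold change of the list was 0.63. MMP2, a gelatinase, rose 9.68-fold (limma adjusted p = 1.04e-05). S100A4, a calcium-binding protein of motile cells, rose 4.42-fold (limma adjusted p = 0.00230), and the fibronectin receptor subunit ITGA5 rose 1.55-fold (limma adjusted p = 0.00437). VIM, the intermediate filament vimentin, was high in both groups, at 908 ± 50.9 FPKM in ARID1Ako cells and 753 ± 85.4 FPKM in parental cells (SD, n = 3 each; limma adjusted p = 0.328). Of the 6 epithelial markers, 1 rose and 5 did not pass. At an unadjusted p under 0.05, 3 were lower, where 15.7% of all tested genes were. With quantile normalization 3 were lower, where 9.74% of all tested genes were called lower, and these were the keratins KRT8 (limma adjusted p = 0.00171), KRT18 (limma adjusted p = 0.00434) and KRT19 (limma adjusted p = 0.000970). Without parental library 2, 2 were lower, where 16.4% of all tested genes were. KRT19 measured 1200 ± 164 FPKM in ARID1Ako cells and 2077 ± 551 FPKM in parental cells (SD, n = 3 each; limma adjusted p = 0.0844 without that normalization). The 1 was CLDN4, a claudin of tight junctions, at 19.7 ± 1.99 FPKM in ARID1Ako cells and 5.42 ± 0.111 FPKM in parental cells (SD, n = 3 each; limma adjusted p = 7.90e-05). EPCAM, an epithelial adhesion molecule, did not pass (limma adjusted p = 0.101). Summed over the list, epithelial markers held 2823 to 3603 FPKM in ARID1Ako libraries and 4089 to 6306 FPKM in parental libraries.

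Markers of fibroblasts, which express CDH2 and CDH11, were near 0, although their sum differed between the groups. Summed over 7 genes they held 0.346 to 0.594 FPKM in ARID1Ako libraries and 0.0176 to 0.137 FPKM in parental libraries. DCN and LUM, defining fibroblast genes, were at 0 in every library. SPARC and PDGFRA were higher in every ARID1Ako library, at no more than 0.291 and 0.258 FPKM. COL6A3 went the other way, at 0 in every ARID1Ako library and 0.00749 to 0.0433 FPKM in parental libraries. PDGFRB and THY1 overlapped between the groups. The 6 leukocyte markers summed to 0.187 to 0.407 FPKM in ARID1Ako libraries and 0.0494 to 0.189 FPKM in parental libraries, with MS4A1 and ITGAM at 0 in every library. The part of these low signals in the CDH11 difference was not tested.

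CDH1 and CDH3 are neighbours on chromosome 16, which also holds CDH5, CDH11 and CDH13. The 20 tested genes nearest to CDH3 in RefSeq order had a median log2 fold change of 0.04, with 1 called higher and none lower by limma (2 and 3 before adjustment), and for CDH1 it was 0.04, with 1 called higher and 1, CDH3 itself, called lower (3 and 3 before adjustment). Around CDH2 on chromosome 18 the median was 0.01 with no limma call in either direction (before adjustment, 1 was higher and 2 lower at 0.05), and around CDH6 on chromosome 5 it was 0.14 with 3 higher and 2 lower (6 and 2 before adjustment). Around CDH24 on chromosome 14 it was -0.20, with 1 higher and 3 lower (2 and 9 before adjustment). Beside these counts of 20, limma called 7.82% of all tested genes higher and 8.11% lower (13.8% and 15.7% before adjustment). Libraries of this kind do not record strand. Antisense genes of the GENCODE annotation overlap exons of CDH1, CDH2, CDH3, CDH6 and CDH13. Reads that lie within the shared positions may therefore not be told apart by strand. How much of each gene is shared was not measured. CDH6 and CDH11 also share exon positions with an annotated gene on the same strand.

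The genes whose profile over the 6 libraries was most like that of a cadherin were sought among all genes that averaged 3 FPKM or more. Likeness was the root-mean-square difference of log2(FPKM + 1) values after each gene was centred on its own mean. For CDH1 the closest were FZD5, TRIB2 and ZNF395, at 0.0187, 0.0346 and 0.0409 log2 units. FZD5 measured 4.25, 3.70 and 4.26 FPKM in ARID1Ako libraries 1, 2 and 3, against 6.55, 4.69 and 6.50 FPKM in parental libraries 1, 2 and 3, with parental library 2 again the lowest of its group. For CDH2 the closest were SGK1, NT5E and CEACAM6, at 0.0852, 0.0939 and 0.0975 log2 units. SGK1 measured 52.4, 45.7 and 46.5 FPKM in ARID1Ako libraries 1, 2 and 3, against 9.07, 7.93 and 9.25 FPKM in parental libraries 1, 2 and 3. The ratio of CDH2 means was 49.9, from parental values near 0 where adding 1 FPKM shrinks a change. Its likeness to these genes thus holds on the log2(FPKM + 1) scale and not for ratios. For CDH3 the closest were ACSL5, AQP3 and ARHGAP23, at 0.0651, 0.0965 and 0.107 log2 units. ACSL5 measured 1.71, 1.67 and 1.69 FPKM in ARID1Ako libraries 1, 2 and 3, against 10.7, 10.6 and 10.5 FPKM in parental libraries 1, 2 and 3.

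**Figure D4:**
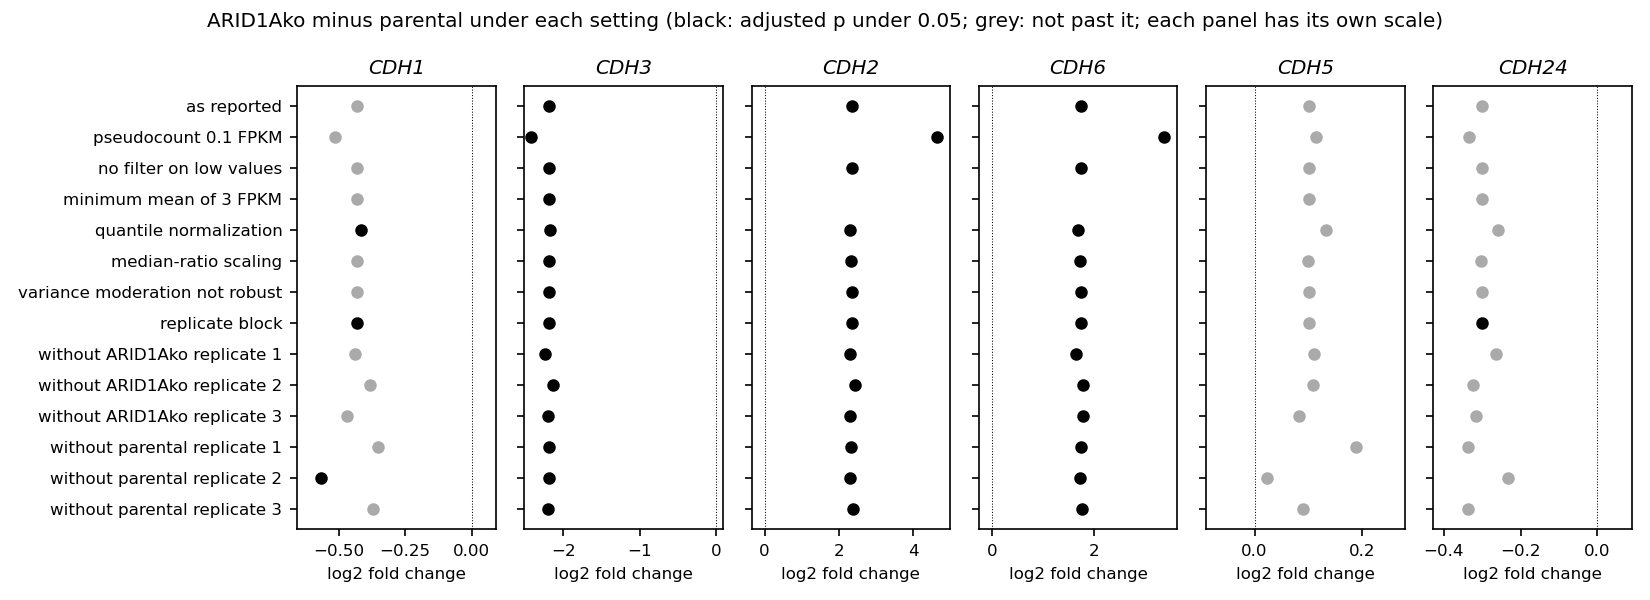
Log2 fold change, ARID1Ako minus parental (horizontal axis, each panel on its own scale), of the 6 tested cadherin genes as reported and under each alternative (vertical axis). Black marks an adjusted p under 0.05, and a missing point means that the gene did not reach the required mean. CDH2, CDH3 and CDH6 are black wherever they were tested, while CDH1 is black in 3 of 13 alternatives and CDH24 in 1.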

How the data were processed

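The authors deposited 1 table per library, which pairs each gene symbol with its FPKM value. TRIzol RNA went into TruSeq version 2 libraries of captured messenger RNA, per the labels' protocols, and that kit does not mark strand. The tools named in the submitters' processing notes are Cuffdiff 2.2.1.5, Cuffnorm 2.2.1.2 and TopHat2 2.1.1, and the build is hg19 (GRCh37). No source used here gives the annotation or the scaling options. Each table held 23273 rows, of which 28 had a symbol turned into a date and were left out. FPKM values are not counts, so limma 3.58.1 (R 4.3.3) with trend and robust moderation was fitted to log2(FPKM + 1) for the 12826 genes that averaged at least 0.5 FPKM, with a term for group and no other. P-values are two-sided and Benjamini-Hochberg adjusted over all tested genes.

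Groups and library numbers came from the sample titles. The table headers number the same libraries 1, 0 and 2 in both groups, so the same libraries share a number either way. Members and gene lists were chosen with earlier results of these data known. The genes named are all members, ARID1A, the called members of each list (at most 6 per list), 11 fixed genes among the catenins, EMT factors, VIM and EPCAM, the 3 genes most like CDH1, CDH2 and CDH3, and marker genes; CDX2, CTNND2, ADAM10, KRT8, KRT18 and KRT19 were named after their values were seen. Gene order and promoter windows came from RefSeq tables of GRCh38.p14, with 96.6% of tested genes placed, and no coordinates of the authors' build are given. Alternatives were another pseudocount, other filters, quantile and median-ratio scaling, moderation that is not robust, a replicate block and leaving out each library.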

Additional observations from a re-analysis of the deposited data

How the results depend on the processing

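CDH2 and CDH6 (higher) and CDH3 (lower) kept direction and call in every alternative in which they were tested, including each library left out; their highest adjusted p was then 0.000663, 0.00137 and 0.000437 (limma). With a minimum mean of 3 FPKM, CDH2 and CDH6 were not tested, so 0 members were higher and 667 genes were higher overall. Lower members numbered 2 with quantile normalization, where CDH1 also passed, and 1 to 2 with a library left out. CDH5 did not pass in any alternative, and CDH1 without a library had an adjusted p between 0.00457 and 0.265.

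Deviations of same-numbered libraries correlated at 0.219, 0.217 and -0.0131 for numbers 1, 2 and 3. Whether a number stands for a shared batch was not tested. With the replicate block, 1861 genes were higher and 2188 lower, and 3 members were lower, CDH1 and CDH24 joining CDH3. The block also gave 1 higher and 4 lower genes of the cadherin-catenin complex and 4 lower epithelial markers. Libraries 1 and 2 of each group correlated best with their own number, and parental library 2 correlated with ARID1Ako library 3 more than parental library 3 did. With a library left out, 522 to 2009 genes were higher and 438 to 2104 lower, both most without parental library 2, which gave 2009 and 2104. With no fragment totals, counting error at low levels is unknown.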
